A study of Mus musculus with 4 samples.

Results

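Genes were compared between untreated SVEC4-10 cells and the same line after each of 3 lentiviral transductions, to find transcripts that stood on one side of the untreated cells whichever insert the vector carried. A gene was counted when all 3 transduced arrays differed from the untreated array by 1 or more on the log2 scale (2-fold or more) in one direction, and when its highest level was at or above 5.41, the median of the whole table. Of 18193 genes measured, 12166 reached that floor on some array and 30 met the rule. The 7 genes that stood higher were 0.0575% of the genes above the floor, and the 23 that stood lower were 0.189%. At a smaller difference of 0.58 (1.49-fold) the counts were 34 higher (0.279%) and 87 lower (0.715%). These values chose the genes, so the levels below are a description and carry no test.

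The study asked which transcripts depend on MICAL2, an enzyme that oxidises actin filaments, in SVEC4-10, a mouse endothelial line made from lymph node vessels with SV40. One array held untreated cells, which had no vector and for which the labels give no selection. The others held cells with an insert-free pLENTI6/Block-iT lentiviral vector, with that vector carrying a short hairpin against Mical2, or with a hairpin against Mical3, a related actin oxidase, and all transduced cells were selected with blasticidin at a dose not given in the sources used here. Each array carried RNA pooled from 3 biological replicates, so there was 1 array per group, no error can be given for any level, and no gene could be tested. All 3 differences were taken from the same untreated array. A level peculiar to that array, an effect of vector entry, an effect of blasticidin and an effect of time in culture therefore cannot be told apart.

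Both hairpins are printed because they are the only designed sequence that differs between the transduced groups. Each is given as DNA, 5′ to 3′, with the arms of the stem in capitals.
Mical2 hairpin: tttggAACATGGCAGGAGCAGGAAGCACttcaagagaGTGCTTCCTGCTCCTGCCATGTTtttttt
Mical3 hairpin: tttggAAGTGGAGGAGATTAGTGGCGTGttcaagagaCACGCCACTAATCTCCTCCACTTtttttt
The stems are 23 bases long and share the same base at 7 positions, and the insert-free vector carries neither. Neither target was lower by 1 or more on the array of its own hairpin. Mical2 read 5.60 on the untreated array, 5.14 on the vector array, 5.53 with its own hairpin and 6.08 with the Mical3 hairpin. Its other probe set read 5.33, 4.64, 5.53 and 6.0 in that order. On the untreated array Mical2 thus stood close to the floor of 5.41, and its other probe set stood below it. Differences are compressed there, so these levels cannot decide whether the hairpin lowered Mical2. Mical3 read 7.39, 7.29, 6.83 and 7.24, so it was lowest with the Mical2 hairpin and near the untreated level with its own. The hairpin arrays are called the Mical2-labelled and the Mical3-labelled array below, and transduced levels are always listed as vector, Mical2-labelled and Mical3-labelled.

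Lentiviral vectors enter a cell through a viral envelope, copy their RNA into DNA and insert it into a chromosome. Blasticidin blocks protein synthesis at the ribosome, and a resistance gene on the vector lets transduced cells survive it. Cells meeting foreign nucleic acid or damaged DNA can switch on interferon genes or p53 targets, while endothelial and stromal cells in culture release chemokines and lay down matrix under the control of NF-kB and TGF-beta. The large T antigen of SV40 binds p53, and that is part of how it transforms cells.

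Quality controls were alike on the arrays except for ribosomal RNA. Differences between the 3′ and 5′ probe sets ranged from 0.03 to 0.18 for Actb and from -0.22 to -0.13 for Gapdh, and the hybridisation spikes varied by at most 0.18. All probe sets for 18S ribosomal RNA were highest on the untreated array, for example 12.50 against 11.83, 11.56 and 11.55, and the part of this in the results was not tested. Defining endothelial markers went against the cell type label: 11 of 22 endothelial genes, Pecam1, Cdh5, Tie1, Tek and Vwf among them, were below the floor on every array, whereas Flt1 (7.70 to 7.76) and Eng (7.31 to 7.58) were above it. Lymphatic markers were mixed: 6 of 9, Prox1 and Lyve1 among them, were below the floor on every array, whereas Pdpn read 11.67 to 12.50. Leukocyte markers were mixed too, and 3 of 8 were below the floor on every array, Ptprc (at most 3.94) among them. The other leukocyte markers reached the floor, for example Cd14 at 7.04 untreated and 5.75, 8.26 and 6.39 transduced. Among fibroblast markers, 5 of 8 reached the floor and Lum, Thy1 and Fap did not. The summed level of the list was 14.60 on the untreated array and 12.28, 14.31 and 13.49 on the transduced arrays. Levels were summed on the linear scale, so Col1a1, Col3a1 and Dcn set most of it. The sum of smooth muscle and pericyte markers was 13.95 against 11.90, 14.18 and 15.07, and that of epithelial markers 9.46 against 8.51, 9.74 and 9.79. Those sums were lower on the vector array only. In pooled RNA, fewer cells of a kind and less RNA per cell cannot be told apart.

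**Figure D1:**
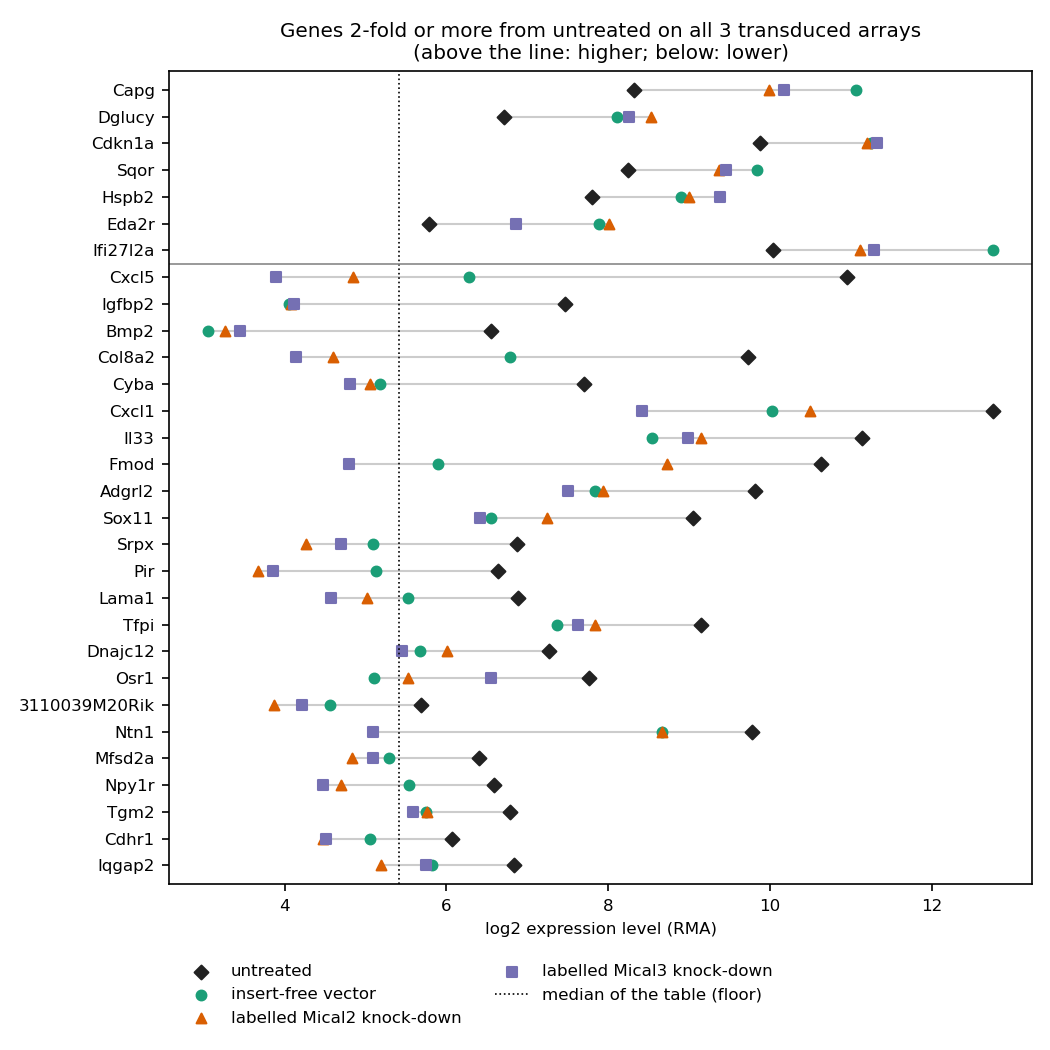
Levels (log2, as deposited) of the genes that differed from the untreated array by 1 or more on all 3 transduced arrays, 1 row per gene and 1 symbol per array, with the floor of 5.41 marked. The 3 transduced symbols of Cdkn1a and of Igfbp2 nearly coincide, whereas those of Fmod are spread over 3.92.

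Among the 7 genes that stood higher, a cell cycle inhibitor and a TNF receptor family member came from the p53 list. Cdkn1a encodes p21, which stops the cell cycle by binding cyclin-dependent kinases and is a classical p53 target. It read 9.88 on the untreated array and 11.25, 11.19 and 11.32 on the transduced arrays. These 3 arrays lay within 0.13 of each other and at least 1.31 (2.48-fold) above the untreated one. Eda2r, a TNF receptor family member that p53 can induce, went from 5.78 to 7.89, 8.01 and 6.86. The Mical3-labelled array was the lowest of the transduced arrays for Eda2r and still 1.08 above the untreated array. With 16 added to the levels on the linear scale this became 0.90, and Eda2r no longer passed at 1. Of the 23 p53 and apoptosis genes measured, no other passed, and Fas, a death receptor that p53 also targets, was lower at 0.58 with 8.66 against 7.42, 7.80 and 7.42. Mdm2, the ubiquitin ligase that degrades p53, read 9.81, 9.92, 10.27 and 9.95 and did not pass, nor did the p53 target Phlda3 at 9.33, 9.42, 10.36 and 9.86. Differences of any size were higher on all 3 arrays for 8 of the 21 p53 genes above the floor (38.1%), where 1966 of all genes above the floor (16.2%) were so, and lower for 3 (14.3%), against 1802 of all (14.8%). Median differences of the list were 0.20, 0.24 and 0.17, against 0.03, -0.03 and 0.01 over all genes above the floor.

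Cdkn1a's promoter is shown because a motif search found matches to the p53 decamer close to an annotated start. It is taken from RefSeq, GRCm38.p6, plus strand, chr17:29090729-29090978, and ends at the base before the start, with matches in capitals.
Cdkn1a promoter: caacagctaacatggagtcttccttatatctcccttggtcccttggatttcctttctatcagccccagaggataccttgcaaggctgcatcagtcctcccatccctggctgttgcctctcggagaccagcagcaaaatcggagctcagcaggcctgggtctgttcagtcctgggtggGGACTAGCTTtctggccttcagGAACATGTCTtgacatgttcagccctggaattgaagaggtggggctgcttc
Each of the matches shown is also one on the other strand, since the decamer is read alike both ways. The nearer one ended 41 bases from that start. Cdkn1a has more than 1 annotated start, and the promoter of the other start searched held no match. Among all 27025 genes with a promoter in the table, 9.55% held such a match on either strand within 250 bases before to 50 after a start, the window of 300 bases searched for every motif here. The decamer was found in 1 of the 5 higher genes with a promoter and in 0 of the 16 lower ones. A match is a sequence description and says nothing of p53 binding in these cells.

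Capg had the farthest distance among the higher genes. It encodes a gelsolin family protein that caps the fast-growing ends of actin filaments. Its levels were 8.32 untreated and 11.06, 9.98 and 10.17 transduced, so the nearest transduced array was 1.66 (3.16-fold) and the vector array 2.74 (6.68-fold) above. Capg was the only one of 31 actin assembly genes measured to pass at 1, and Pfn2, a profilin that feeds actin monomers to growing filaments, was lower at 0.58 with 9.46 against 8.83, 8.73 and 8.73. Gsn, the severing and capping protein gelsolin, read 12.61, 12.94, 12.91 and 12.97 and stood higher without passing. Median differences of the actin list were -0.23, -0.02 and 0.12.

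Hspb2 encodes a small heat shock protein known from muscle. It read 7.80 on the untreated array and 8.90, 9.0 and 9.38 on the transduced arrays, a smallest difference of 1.10. Its family member Cryab read 11.51, 11.54, 12.35 and 12.27, which puts the vector array at the untreated level. No gene of the heat shock list, which did not hold Hspb2, passed at 1 or 0.58, and at any size 6 of its 14 genes above the floor (42.9%) were lower on all 3 arrays and 2 (14.3%) higher, against 14.8% and 16.2% of all genes.

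Sqor, the mitochondrial enzyme that oxidises hydrogen sulfide, read 8.24 untreated and 9.84, 9.37 and 9.45 transduced. Dglucy, a mitochondrial enzyme that acts on D-glutamate, read 6.71 against 8.11, 8.53 and 8.26. Both were more than 2-fold higher on each transduced array, by at least 1.13 for Sqor and 1.40 for Dglucy. Of 24 oxidative phosphorylation genes measured, none passed at 0.58, beside 0.279% higher and 0.715% lower of all genes above the floor.

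Ifi27l2a, an interferon-inducible gene of the mitochondrial or nuclear membrane, stood at 10.03 on the untreated array and at 12.75, 11.11 and 11.28 on the transduced arrays. Its range over the transduced arrays, 1.64, was larger than its smallest difference of 1.08, with the vector array far above the others. Ifi27l2b, a nearby paralog, passed at 0.58 with 6.28 against 6.89, 7.38 and 8.13, and here the Mical3-labelled array was highest. Probe sets of paralogs can bind each other's RNA, so the pair may not be independent. Of 37 other interferon response genes measured, none passed at 0.58 on all 3 arrays. Their median difference was 1.02 on the vector array, -0.72 on the Mical2-labelled array and 0.08 on the Mical3-labelled array. At 1 or more, 21 of them stood higher on the vector array and 0 lower, beside 3.26% and 2.57% of all genes above the floor for that pair, and on the Mical2-labelled array 0 stood higher and 14 lower, beside 1.44% and 2.44%. On the Mical3-labelled array 1 stood higher and 0 lower, beside 1.95% and 3.72%.

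The lower genes included the largest differences of the comparison, and a neutrophil-attracting chemokine led them. Cxcl5, which binds CXCR2 on neutrophils, read 10.95 on the untreated array and 6.28, 4.85 and 3.89 on the transduced arrays. The smallest of its 3 differences was -4.67 (25.5-fold lower), on the vector array, and the largest was -7.06 (133-fold lower), on the Mical3-labelled array. Cxcl1, a second CXCR2 ligand, went from 12.75 to 10.02, 10.49 and 8.42, at least 4.79-fold lower. Another probe set of Cxcl1 read 12.74 against 9.98, 10.40 and 8.54, and the remaining one, at 10.06 against 9.26, 9.44 and 8.14, passed at 0.58. Ppbp, the next gene to Cxcl5 in the measured gene order and also a CXCR2 ligand, passed at 0.58 with 5.75 against 4.12, 4.94 and 4.09.

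Of 25 chemokine genes on the list, 18 reached the floor and only Cxcl1 and Cxcl5 passed on all 3 arrays (Ppbp is not on the list). At any size 5 of the 18 (27.8%) stood higher and 3 (16.7%) lower, against 16.2% and 14.8% of all genes. The monocyte attractants Ccl2 and Ccl7 stood slightly higher on all 3 transduced arrays, Ccl2 at 12.69 against 13.03, 12.89 and 13.30, and Ccl7 at 11.75 against 12.05, 12.16 and 12.27. Cxcl15, a lung chemokine, lay on opposite sides of the untreated level, at 8.79 against 11.34, 3.92 and 3.94, higher on the vector array and lower on both hairpin arrays. Ccl20 stood lower at 8.15 against 6.85, 7.20 and 7.69 and missed the threshold on the Mical3-labelled array. Median differences of the list were 0.12, 0.16 and -0.03.

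Il33, a nuclear alarmin of the interleukin-1 family released from damaged stromal and endothelial cells, read 11.14 untreated and 8.54, 9.15 and 8.98 transduced. The smallest difference was -1.99 (3.97-fold lower), on the Mical2-labelled array. Its relative Il18 passed at 0.58 with 10.44 against 9.82, 8.71 and 9.72. Saa3, an acute phase protein, came just short of the threshold at 11.55 against 10.54, 10.57 and 7.94. Of 24 NF-kB genes and outputs measured, only Birc3, an inhibitor of apoptosis, passed at 0.58, with 6.19 against 5.31, 4.75 and 5.50. The cytokine Il6, at 8.68 against 6.71, 8.24 and 7.42, and the adhesion molecule Vcam1, at 10.92 against 9.97, 10.64 and 9.97, stood lower on all 3 without passing. The NF-kB subunit Rel, at 6.05 against 6.80, 6.47 and 6.59, and Tnfaip2, at 10.88 against 11.44, 11.24 and 11.59, stood higher on all 3. At any size 4 of the 20 list genes above the floor (20%) were lower and 2 (10.0%) higher, against 14.8% and 16.2% of all genes.

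Cxcl1's promoter is shown because it holds the NF-kB consensus. It is from RefSeq, GRCm38.p6, plus strand, chr5:90890995-90891244, with the match in capitals.
Cxcl1 promoter: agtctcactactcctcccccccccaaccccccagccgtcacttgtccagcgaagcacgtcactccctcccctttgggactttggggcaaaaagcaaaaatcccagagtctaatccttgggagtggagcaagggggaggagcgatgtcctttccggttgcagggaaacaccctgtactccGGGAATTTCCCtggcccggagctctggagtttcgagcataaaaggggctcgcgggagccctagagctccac
The capitals hold overlapping matches on both strands and end 60 bases from the start. Such a match was found in 2 of the 16 lower genes with a promoter, Cxcl1 and Cdhr1 (12.5%), in 0 of the 5 higher ones, and in 5.14% of all genes in the table. Both this motif and the p53 decamer were added after the levels were seen. Of the other motifs searched on both strands, the AP-1 site TGANTCA was in 3 of the 16 lower promoters (18.8%, against 8.97% of all). The GC box GGGCGG was in 8 (50.0%, against 38.2%), TATAAA in 4 (25.0%, against 15.7%) and the E-box CACGTG in 2 (12.5%, against 8.09%). CCAAT went the other way, in 5 (31.2%, against 41.1%), and the CRE TGACGTCA and the CArG box were in 0 (2.03% and 1.81% of all). The interferon-stimulated response element core was in 0, with 1 match among the 5 higher genes, in Sqor (3.99% of all).

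Bmp2, a bone morphogenetic protein that signals through SMAD proteins, read 6.55 on the untreated array and 3.06, 3.26 and 3.45 on the transduced arrays, with a smallest difference of -3.10 (8.57-fold lower). All transduced levels of Bmp2 lay below the floor, and with 16 added on the linear scale the smallest difference was -2.03. Bmp4 passed at 0.58 with 10.49 against 9.69, 9.44 and 9.49. No other of the 31 TGF-beta and BMP genes measured passed. Id1, a SMAD target, read 12.22, 12.23, 12.65 and 13.16, and the receptor Bmpr1a 10.10, 10.19, 10.18 and 10.25. Id1 was level with untreated on the vector array and 0.94 above it on the Mical3-labelled array, while Bmpr1a differed by less. At any size 8 of the 26 list genes above the floor (30.8%) stood higher on all 3 arrays and 3 (11.5%) lower, against 16.2% and 14.8% of all genes.

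Igfbp2, which binds insulin-like growth factors outside the cell, had the closest agreement among transduced arrays of the lower genes. It read 7.46 untreated and 4.06, 4.08 and 4.12 transduced, a range of 0.06 beside a smallest difference of -3.34 (10.1-fold lower). The transduced levels lie below the floor, where differences between arrays are compressed. Igf2r, the receptor that clears Igf2, passed at 0.58 with 9.62 against 8.59, 8.82 and 8.82. The binding protein Igfbp3 read 5.92, 5.40, 5.49 and 4.46 and missed the threshold on the vector and Mical2-labelled arrays.

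Ntn1, a laminin-like guidance ligand for axons and vessels, read 9.78 untreated, 8.66 on both the vector and the Mical2-labelled array, and 5.09 on the Mical3-labelled array. It passed narrowly on the first pair, with a difference of -1.12, while the Mical3-labelled array was 25.8-fold below. Sema3a, a repulsive guidance ligand, passed at 0.58 with 10.29 against 9.28, 9.60 and 9.56, and the other 33 of the 35 guidance genes measured did not. Npy1r, a neuropeptide Y receptor, read 6.59 against 5.54, 4.70 and 4.48. Adgrl2, an adhesion receptor of the latrophilin family, read 9.81 against 7.84, 7.94 and 7.50, at least 3.66-fold lower.

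Of 36 matrix glycoproteins and proteoglycans on the list, 1 passed at 1. This was Fmod, a small proteoglycan that binds collagen fibrils, which read 10.63 on the untreated array and 5.89, 8.72 and 4.80 on the transduced arrays. Its smallest difference was -1.91, but the transduced arrays spread over 3.92, more than that distance, with the Mical2-labelled array nearest to the untreated one. Some lower genes on no list also encode matrix proteins. Col8a2, a short-chain collagen of basement membranes, read 9.73 against 6.79, 4.60 and 4.14, at least 7.67-fold lower. Lama1, the laminin alpha chain of early basement membranes, read 6.88 against 5.53, 5.02 and 4.57. Srpx, a secreted sushi-repeat protein, read 6.87 against 5.09, 4.27 and 4.70, with all transduced levels below the floor.

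Tgm2 encodes tissue transglutaminase, which crosslinks matrix proteins. The probe set used by the rule read 6.79 against 5.75, 5.76 and 5.59, just past the threshold. Other Tgm2 probe sets differed more, for example 7.89 against 4.37, 4.15 and 4.79, and 7.50 against 4.21, 3.86 and 4.42, while another read 5.75, 5.65, 5.78 and 5.58. The size of the Tgm2 difference thus depends on the probe set, from none to over 3 log2 units.

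Of 19 collagens on the list, Col1a1 alone passed at 0.58, with 12.99 against 10.95, 12.15 and 11.27. At any size, 10 of the 15 collagens above the floor (66.7%) stood lower on all 3 arrays and none stood higher, against 14.8% and 16.2% of all genes. Col3a1, at 13.29 against 10.30, 13.25 and 10.79, was nearly level with the untreated array on the Mical2-labelled array. The list's medians were -1.21, -0.14 and -0.57, so the vector array was the lowest and the Mical2-labelled array close to untreated. On the matrix glycoprotein list, the matricellular proteins Postn (8.92 against 5.56, 8.32 and 5.22) and Thbs1 (10.73 against 9.16, 9.87 and 9.56) passed at 0.58. The medians of that list were -0.75, -0.09 and -0.20, and 10 of its 31 genes above the floor (32.3%) stood lower on all 3 arrays at any size and 0 higher, against 14.8% and 16.2% of all genes. Several stood higher on some arrays, such as the proteoglycan Vcan at 8.86 against 7.71, 10.23 and 6.79 and the matricellular protein Ccn2 at 12.78 against 10.54, 13.10 and 13.59. Of the fibroblast markers above the floor that are no collagens, Pdgfra read 10.40 against 6.16, 9.88 and 7.07. Dcn, at 12.36 against 10.52, 12.27 and 12.79, stood higher on the Mical3-labelled array, and Dpt, at 6.66 against 7.05, 6.13 and 5.01, stood higher on the vector array. The part of these markers in the matrix differences was not tested.

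Transcription factors among the lower genes were both known from embryonic tissue. Sox11, a factor of neural and mesenchymal progenitors, read 9.05 untreated and 6.55, 7.24 and 6.42 transduced, at least 3.51-fold lower. Osr1, a zinc finger factor of mesenchyme and kidney, read 7.76 against 5.10, 5.52 and 6.55. For Osr1 the range of 1.45 over the transduced arrays was larger in size than its smallest difference of -1.21. Of 28 Hox genes measured, none passed at 0.58. Among all genes above the floor only 0.279% passed as higher and 0.715% as lower, so this says little of Hox genes.

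The remaining lower genes had single roles. Tfpi, the inhibitor of tissue factor that limits clotting on endothelium, read 9.14 against 7.36, 7.84 and 7.62, at least 2.46-fold lower, and 2 further probe sets of Tfpi passed at 1. Cyba, the membrane subunit shared by NADPH oxidases, read 7.70 against 5.18, 5.05 and 4.81, at least 5.74-fold lower. Pir, an iron-binding nuclear protein, read 6.64 against 5.13, 3.67 and 3.86. All transduced levels of Cyba and Pir lay below the floor.

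Dnajc12, a co-chaperone of aromatic amino acid hydroxylases, read 7.27 against 5.67, 6.01 and 5.45. Mfsd2a, the lysolipid transporter of the blood-brain barrier, read 6.40 against 5.29, 4.83 and 5.09. Both were lower on each transduced array by amounts larger than the range of those arrays. Nearest to the threshold stood Cdhr1, a photoreceptor protocadherin, at 6.07 against 5.05, 4.47 and 4.51, and Iqgap2, a scaffold of the actin cortex, at 6.83 against 5.82, 5.19 and 5.75. All transduced levels of Mfsd2a and Cdhr1 lay below the floor. The last lower gene, 3110039M20Rik, carries a clone name and is counted without description.

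How far the transduced arrays stood from each other was set beside their distance from the untreated array. For 24 of the 30 genes the nearest transduced array was farther from the untreated level than the range of the 3 transduced arrays. This held for 5 of 7 higher and 19 of 23 lower genes, and for 74 of the 121 genes that passed at 0.58. The rule itself asks for a distance past its threshold, so it favours these counts. The share over all genes was not computed, and no agreement among the arrays can be read from them. The range had a median of 0.48 for the higher and 0.69 for the lower genes, against 0.51 over all genes above the floor. The Mical3-labelled array was the farthest from untreated for 12 of the 23 lower genes, the Mical2-labelled array for 6 and the vector array for 5. For the higher genes the counts were 2, 2 and 3. Over all genes above the floor for each pair, 3.72%, 2.44% and 2.57% stood lower by 1 or more on these arrays, in the same order. The shares that stood higher were 1.95%, 1.44% and 3.26%, so these counts follow the arrays and are no trait of the 30 genes. On 8 of the lower genes all transduced arrays were below the floor, and on 16 at least 1 was.

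**Figure D2:**
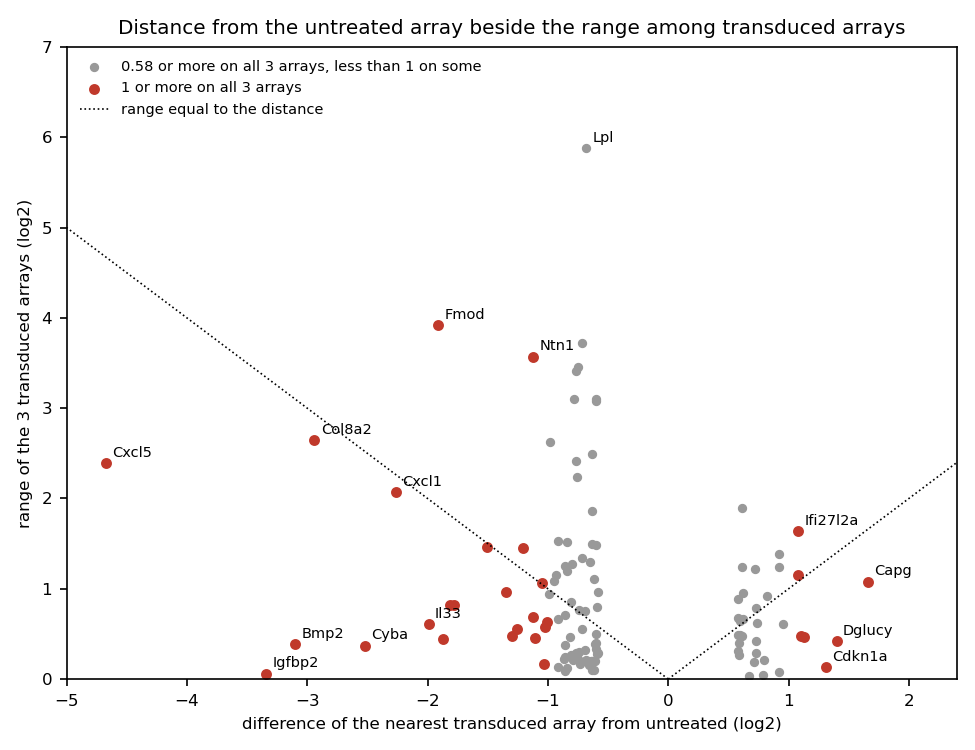
Difference of the nearest transduced array from the untreated array (log2, horizontal) and range of the 3 transduced arrays (log2, vertical) for the genes at 0.58, with the genes at 1 in red. Points below the dotted line, among them Cxcl5, Igfbp2, Bmp2, Cyba and Cdkn1a, lie farther from untreated than the transduced arrays lie from each other, and Lpl, with a range of 5.88, is the highest point.

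The threshold divided genes of nearly equal differences. Just inside on the higher side were Eda2r and Ifi27l2a at 1.08 and Hspb2 at 1.10, and just outside were Tmem140 at 0.95 and Atg10 and Car6 at 0.92. On the lower side Iqgap2 at -1.01, Cdhr1 at -1.02 and Tgm2 at -1.03 were inside, and Amer1 at -0.99, Saa3 at -0.98 and Cdh10 at -0.95 were outside.

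At 0.58, 27 further higher genes and 64 further lower genes were added. Myc, a growth-promoting transcription factor, read 9.48 against 10.06, 10.09 and 10.37, and its neighbour Pvt1, a long noncoding RNA, 8.26 against 9.16, 9.06 and 8.97. Klf4, a factor induced in quiescent endothelium, read 10.61 against 11.87, 11.43 and 11.19. Myc and Klf4 were the only immediate early or ERK feedback genes of 32 measured to pass. At any size 12 of the 31 list genes above the floor (38.7%) were higher on all 3 arrays and 1 (3.23%) lower, against 16.2% and 14.8% of all genes. The list's medians were 0.04, 0.28 and 0.56, so the vector array had the smallest shift.

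Tlr4, the receptor for bacterial lipopolysaccharide, read 7.55 against 8.79, 8.43 and 8.15. It was the only one of 24 genes measured on the list of nucleic acid sensing and retroviral restriction to pass at 0.58, and it does not sense nucleic acid. Casp4, the caspase that detects lipopolysaccharide inside cells, read 8.40 against 9.20, 9.19 and 9.24, an almost equal step on each transduced array. Txnip, an inhibitor of thioredoxin and of glucose uptake, read 8.10 against 8.99, 8.70 and 9.19. Its other probe set, at 5.74 against 5.58, 6.19 and 5.86, was lower on the vector array and did not pass. Ereg, an EGF receptor ligand whose gene lies near Cxcl1, stood higher at 7.28 against 7.86, 8.54 and 8.75.

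Lipid genes on the lower side were Mvd, an enzyme of the mevalonate pathway, at 8.43 against 7.50, 7.83 and 7.50, and Elovl6, a fatty acid elongase, at 9.20 against 7.42, 8.48 and 7.14. No other of the 22 cholesterol and fatty acid synthesis genes passed. Of these 22, 14 (63.6%) stood lower on all 3 arrays at some size and 0 higher, against 14.8% and 16.2% of all genes above the floor, with medians of -0.78, -0.22 and -0.44. Among those that did not pass, the demethylating enzyme Msmo1 read 10.49 against 9.38, 10.25 and 10.03 and the dehydrogenase Nsdhl 9.86 against 8.69, 9.56 and 8.78. Lpl, lipoprotein lipase, passed at 0.58 with 11.91 against 11.23, 5.35 and 11.13, and its Mical2-labelled array stood far below the others. Another probe set of Lpl, at 8.76 against 7.93, 4.78 and 8.3, missed 0.58 on the Mical3-labelled array.

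Further list genes that passed at 0.58 were lower. Wnt5b, a Wnt ligand, read 6.06 against 5.33, 5.31 and 5.13. Ahr, the receptor that senses aromatic pollutants, read 10.30 against 9.71, 9.57 and 8.91. Adam12, a membrane protease, read 8.16 against 5.01, 7.56 and 4.48. For Adam12 the Mical2-labelled array again stood nearest to untreated, as it did for Postn and Fmod.

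Several calls at 0.58 ended under another setting. With quantile normalization repeated, the smallest differences were 0.56 for Klf4, -0.52 for Postn, -0.53 for Mvd and Adam12 and -0.56 for Ahr, all just short. Myc was at 0.57 with 16 added on the linear scale. Mvd was at -0.22 when probe sets prone to cross-hybridise were omitted and at -0.41 with averaged probe sets. Averaging also gave 0.28 for Tlr4, -0.41 for Birc3 and -0.41 for Ahr. Another probe set of Sema3a gave -0.26. For Wnt5b, the direction was lost when probe sets open to other transcripts were omitted, with a weakest difference of 0.06.

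Counts over the 46 gene lists place these genes. Of the 30 genes, 8 stood on a list, and of the 121 at 0.58, 26 did, beside 959 list entries with a measured gene among all 18193 genes. The lists were chosen with earlier results of these data known, so no enrichment can be read from these counts. At 1, 6 lists had a passing gene and at 0.58, 17 had, while 29 lists had none. Over all genes above the floor 0.279% passed as higher and 0.715% as lower at 0.58. A list of this length without a passing gene is therefore no result about its genes. The lists without any covered, among others, the integrated stress response, the unfolded protein response, ribosomal proteins, ribosome biogenesis, replication and mitosis, the machinery that processes hairpins, chromatin silencing of inserts, SRF targets and antigen presentation. In the unfolded protein response list 10 of 20 genes (50.0%) stood lower on all 3 arrays at some size and 2 (10.0%) higher, against 14.8% and 16.2% of all genes, with medians of -0.41, -0.17 and -0.17.

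**Figure D3:**
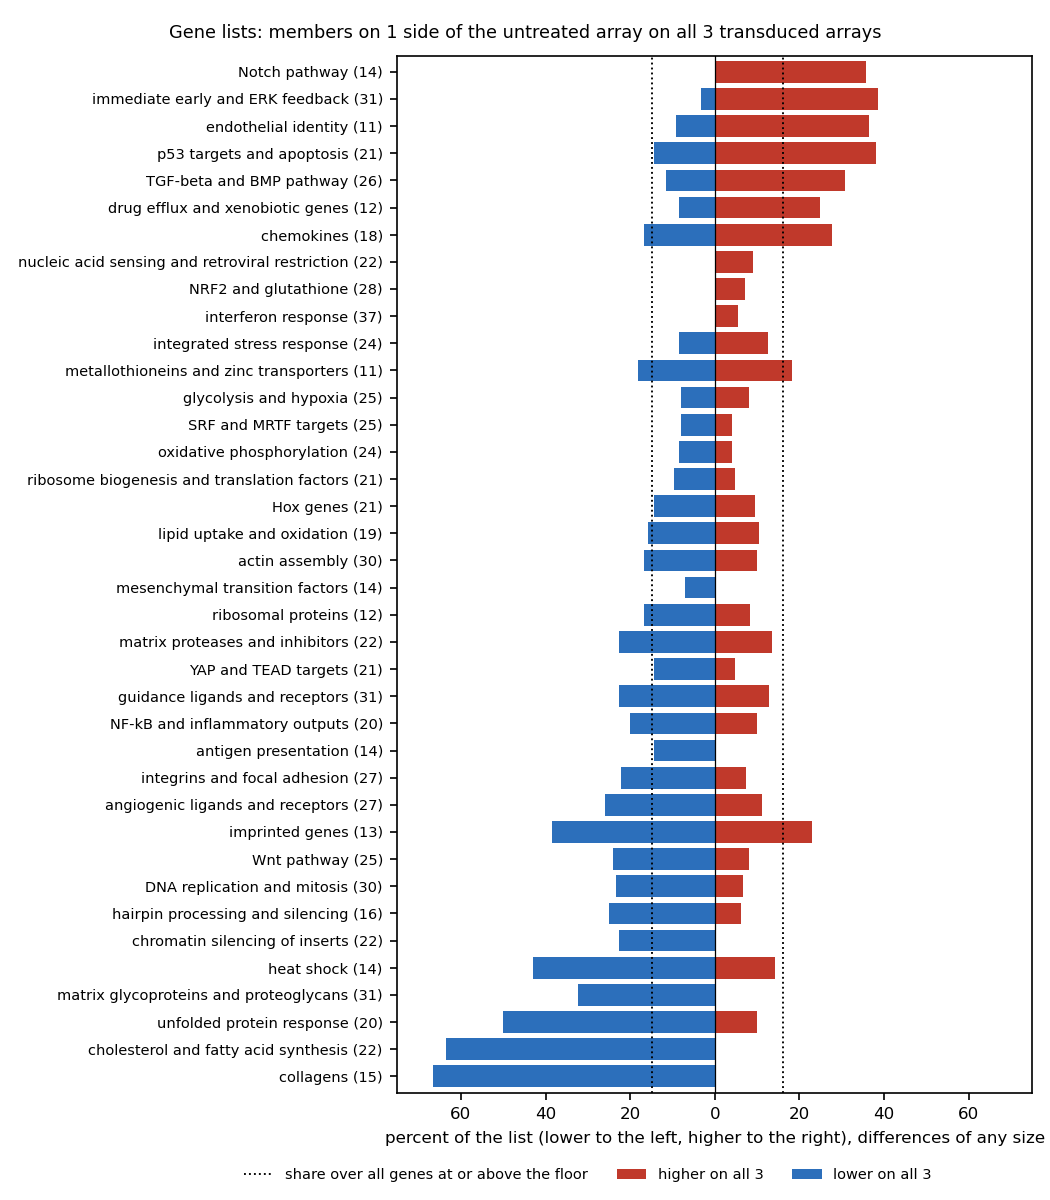
Percent of each gene list's members above the floor that stood on one side of the untreated array on all 3 transduced arrays at any size, higher to the right and lower to the left, for lists with at least 10 such members (their number in brackets). Dotted lines give the shares over all genes above the floor, 16.2% and 14.8%. Collagens and cholesterol synthesis extend farthest to the left, and the immediate early and p53 lists farthest to the right.

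Probe sets that the rule did not use measured the same RNA on the same arrays, so they bear on the probes and not on the cells. Of the 30 genes, 12 had other probe sets, 28 in all, of which 23 reached the floor. Of these 23, 21 stood on the same side of the untreated array on all 3 arrays, 20 passed at 0.58 and 19 passed at 1, for 8 of the 9 genes concerned. The second probe set of Cdkn1a read 9.61 against 11.00, 11.05 and 11.19, and all 5 others of Fmod and all 5 others of Sox11 passed at 1. Iqgap2 was the exception among genes, its other probe set reading 6.24 against 6.20, 5.21 and 5.62. Among the 121 genes at 0.58, 72 other probe sets reached the floor and 42 of them passed at 0.58. Over 5510 pairs of probe sets of all genes, the spread of a difference was 0.27, 0.25 and 0.29 (SD per probe set) on the vector, Mical2-labelled and Mical3-labelled arrays.

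**Figure D4:**
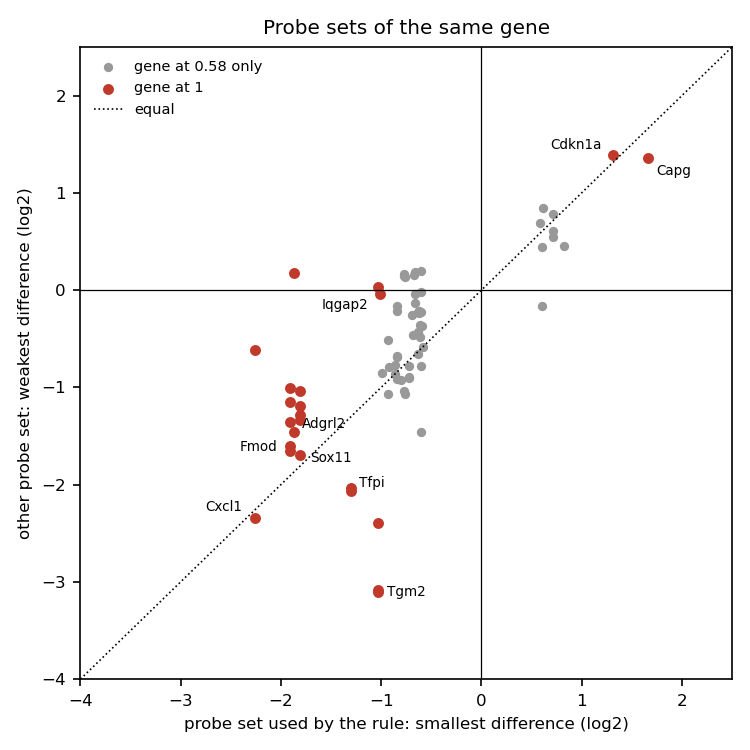
Smallest of the 3 differences for the probe set used by the rule (log2, horizontal) and weakest difference of each other probe set of the gene that reached the floor (log2, vertical), with genes at 1 in red and equality dotted. Tgm2 and Tfpi have other probe sets below the line, and the other probe set of Iqgap2 lies close to 0.

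In the order of genes along the chromosomes, the 30 genes lay on 16 chromosomes. Of the 121 genes at 0.58, 120 could be placed, and 13 pairs lay within 5 steps of each other in the order of measured genes. In 12 of the 13 pairs both genes stood on the same side of the untreated array. Since 87 of the 121 genes were lower, many pairs would agree in any case. The shares among all neighbouring genes were not computed. On chromosome 5 the paired genes were Cxcl5, Ppbp and Cxcl1, with Ereg as the neighbour on the opposite side. On chromosome 8 they were Cyba, Mvd and Zfp469, and on chromosome 10 Tspan8, Kcnmb4 and Kcnmb4os2. Chromosome 12 held Rps6ka5 with Dglucy and Ifi27l2a with Ifi27l2b, chromosome 15 Myc with Pvt1, and chromosome 17 Lama1 with Epb41l3.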

How the data were processed

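Total RNA of SVEC4-10 cells was hybridised to 4 Affymetrix-type 3' expression arrays, 1 per group. The authors deposited log2 expression levels per probe set, computed with RMA (background correction, quantile normalization and probe summary) per the submitters' processing notes, with version and settings not given in the sources used here. Column medians were 5.40 to 5.44. Of 45101 probe sets, 64 are controls, 34945 have 1 gene symbol in the platform annotation (34741 matched to the RefSeq gene table of GRCm38.p6, 204 kept the annotation's symbol), 932 have several and 9160 none. The last 2 kinds were left out. For a gene with several probe sets, the one of highest average level was used.

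With 1 array per group, only a size rule was applied, and the number of arrays limits the precision. The rule was run on simulated arrays with changes well above the threshold in bright genes and noise from the spread between probe sets. Recovery was thus set by the design. The run checks the code only, and does not cover dim genes or a deviating untreated array. Members, gene lists and alternatives were chosen with earlier results of these data known. All genes passing at 1 are named, with the 3 nearest the threshold on each side, list members passing at 0.58 (up to 4 per list) and the MICAL genes. Other genes of a list or beside a member, and those quoted as not passing, were named after their values were seen. Promoters were found in RefSeq's table for 5 of 7 higher and 16 of 23 lower genes. Alternatives changed the threshold, floor, probe set per gene, normalization, dim levels and the transduced arrays required. Python 3.11.15, numpy 2.4.6, pandas 2.3.3, statsmodels 0.14.6 and matplotlib 3.10.9 were used.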

Additional observations from a re-analysis of the deposited data

How the results depend on the processing

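With no test, results were counts of genes past a size, 7 higher and 23 lower at 1, and 34 higher and 87 lower at 0.58. Repeated quantile normalization, a loess fit to the untreated array, no floor, averaged probe sets, the most variable probe set and omission of probe sets prone to cross-hybridise kept each count of genes within 1.5 times, and all of the 30 genes kept their direction. Under a 3-fold threshold 1 gene was higher and 11 were lower. A floor at the 75th percentile left 9 lower at 1 and 51 lower at 0.58. With 16 added on the linear scale, 21 were higher at 0.58, and 23 of the 30 genes remained at 1, Eda2r (0.90) and 6 lower genes being lost. Averaged probe sets kept 26 of the 30, and Sqor, Ntn1, Npy1r and Iqgap2 no longer passed, at 0.59, -0.58, -0.54 and -0.53. Requiring fewer arrays let more genes pass by construction: without the vector array 24 higher and 73 lower at 1 and 135 and 298 at 0.58, without the Mical2-labelled array 18, 94, 129 and 231, and without the Mical3-labelled array 23, 49, 129 and 173. The cause of the other changes was not tested. Signal near background limits what can be read: on 16 of the 23 lower genes at least 1 transduced level was below the floor, so the size of those differences is compressed. No paired analysis was possible because each group has 1 array and the labels give no replicate numbers.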

Other observations

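Among probe sets with several gene symbols or none, 2845 reached the floor and 2 passed at 1. Neither carries a gene name in the annotation. The higher one read 4.77 on the untreated array and 6.25, 6.13 and 5.84 on the vector, Mical2-labelled and Mical3-labelled arrays. The lower one read 6.71 against 5.68, 5.51 and 5.69. In both, the transduced arrays lay closer to each other than to the untreated array.

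Several genes at 0.58 stand on no gene list. Gas1, a membrane protein that binds Hedgehog ligands, read 13.39 on the untreated array and 10.21, 12.62 and 12.31 on the transduced arrays, lowest on the vector array. Itgb8, an integrin subunit that activates latent TGF-beta, read 7.03 against 6.25, 4.53 and 3.15. Runx3, a runt family transcription factor, read 8.76 against 7.99, 7.44 and 4.58. Its other probe set, at 6.01 against 6.07, 6.18 and 6.07, showed no fall. Slc7a2, a transporter of arginine and lysine, read 9.59 against 8.87, 7.25 and 5.15. On the probe sets that the rule used for Itgb8, Runx3 and Slc7a2, the Mical3-labelled array was the lowest and the vector array the nearest to untreated. Xdh, the xanthine dehydrogenase that makes uric acid, stood higher at 8.61 against 10.18, 9.23 and 9.32, and Ctla2a, a cathepsin inhibitor, at 8.33 against 9.33, 10.64 and 9.25.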
